A study of Mus musculus with 4 samples.

Results

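The Wnt pathway genes examined here are the Wnt ligands, the R-spondin agonists, the frizzled and LRP receptors, the secreted antagonists of the Sfrp, Dkk and Wif families, and 5 genes of the intracellular cascade, namely Axin1, Axin2, Ctnnb1, Lef1 and Tcf7. They were picked by gene symbol and not by a cut on any measured value, but with earlier results of these data known. The rule found 50 genes of the 27029 genes named in the array files, covered by 73 probes, and a gene with more than 1 probe is represented by its brightest probe. RNA came from infarcted heart tissue of KDM5B-knockout (KO) and wild-type (WT) mice. There were 2 Agilent one-colour arrays per group, numbered 2 and 3 in the sample titles and called WT 2, WT 3, KO 2 and KO 3. The study asked what the histone demethylase KDM5B does in the injured heart. All mice were labelled male, were between 8 and 10 weeks old, and had the left anterior descending coronary artery ligated 7 days before harvest, so the groups share the infarct and no sham-operated group was analysed here. The study's methods describe the KO as a CRISPR/Cas9 deletion on a C57BL/6 background that removes coding sequence of the JmjC (demethylase) domain and shifts the reading frame, an allele that is not restricted to one cell type. Nothing in the labels ties the array numbers to littermates or to a shared operation.

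Secreted Wnt proteins bind frizzled receptors together with LRP5 or LRP6, and in the canonical branch this stops the Axin complex from degrading β-catenin, the product of Ctnnb1, which then drives transcription with LEF/TCF factors. Secreted frizzled-related proteins (Sfrp1, Sfrp2, Frzb, Sfrp4, Sfrp5) and Wif1 bind Wnt ligands outside the cell, Dickkopf proteins act mainly at LRP5 and LRP6, and R-spondins strengthen the signal by keeping frizzled receptors at the cell surface. In the infarcted heart the pathway is known for its activity in scar fibroblasts, endothelium and epicardium, and several of the secreted antagonists are made by fibroblasts.

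The frizzled-related genes are relatives, so the probes that measured them and Wif1 are shown to let the values be tied to a sequence. Each probe is 60 bases long, and its first 30 bases are printed 5′ to 3′ as deposited, in lower case throughout.
Sfrp4: cacagttgtctgtgtgcatactgtgtaaga
Sfrp2: tcggcatctaagtcttcaaacatttcgttg
Sfrp1: cggaatcagtatagcgtggaaggagacagt
Frzb: gtgcaccagggtgttatttaacagaggtat
Sfrp5: aagaataaggagatgaagtttgcggtcaaa
Wif1: ggctgatatctactcttccttttaggtttt
On build mm9, per the files, they lie at chr13:19724488-19724547 (+) for Sfrp4, chr3:83577864-83577923 (+) for Sfrp2, chr8:24558112-24558171 (+) for Sfrp1, chr2:80252582-80252641 (-) for Frzb, chr19:42273211-42273270 (-) for Sfrp5 and chr10:120537079-120537138 (+) for Wif1. Whether a probe lies in coding sequence or in a UTR was not determined, because no mm9 annotation was used. Over the 15 pairs of these 6 full-length probes, the longest run of bases that a pair shared was 7.

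Signals are given on the log2 scale, as the distance from the array's own 75th percentile, which was 876.3 (WT 2), 976.1 (WT 3), 607.6 (KO 2) and 885.2 (KO 3). A gene was tested when 1 or both genotypes had its probe well above background on their 2 arrays, and 37 of the 50 genes passed. The other 13 were Rspo2, Rspo3, Dkk1, Dkk4, Wnt2b, Wnt3, Wnt3a, Wnt7a, Wnt8a, Wnt8b, Wnt10b, Wnt16 and Fzd10, and 6 of them, Rspo2, Wnt2b, Wnt8a, Wnt10b, Wnt16 and Dkk1, had a probe well above background on 1 or 2 of the 4 arrays. Of the 37, 32 were well above background on all 4 arrays, while Lef1, Tcf7, Wnt4 and Wnt10a passed through WT only and Rspo4 through KO only. Passing only through the group where a gene is high favours a difference. Counts and medians over the 37 thus describe the genes that passed and support nothing by themselves. Tested were 8 of 10 antagonists, 2 of 4 R-spondins, 11 of 12 receptors, 11 of 19 Wnt ligands and 5 of 5 intracellular genes. The signals are of bulk heart tissue, in which fewer cells of a type and less RNA per cell cannot be told apart.

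Before the Wnt genes, the targeted gene was read. The brighter of the 2 Kdm5b probes was at -0.87 (WT 2), -1.81 (WT 3), -2.40 (KO 2) and -2.26 (KO 3), lower on both KO arrays. Its difference was -0.996 (standard error 0.40, limma adjusted p 0.9999) and -0.53 without WT 2, and the dimmer probe differed by -1.19. Neither probe is known here to lie in the deleted part, and signal remained on the KO arrays. Xist, the RNA of the inactive X chromosome, gave strong signal on WT 2 and KO 2, and the Y-linked genes Ddx3y and Eif2s3y were well above background only on WT 3 and KO 3. The number 2 arrays thus went against their label of male, in both genotypes. Array number and this sex-linked signal go together, so gaps between the numbers cannot be told apart from it. Many of the results below, though not all, are also given within number 2 and within number 3, each with a single array of either genotype and hence no replicate. The label of heart was met, with all 10 cardiomyocyte markers well above background on the 4 arrays. KO 2 was also alone in high signal of the atrial transcripts Myl7 (6.39, against between -0.70 and 0.23 on the other arrays) and Sln (5.95, against between -7.23 and -2.46). Of the other atrial markers, Myl4 was likewise high on KO 2 only, at 5.46. Nppa was high on all 4 arrays, between 8.54 and 9.24, and Bmp10 was well above background on none of them. All arrays lay on 1 slide with the WT and KO arrays at separate positions, so position and genotype cannot be told apart.

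The Wnt pathway genes were lower in KO more often than higher, and the secreted antagonists held the largest difference. By limma with Benjamini-Hochberg adjustment over all 28304 tested probes, 0 of the 37 genes and 0 probes overall (0% of probes) passed the threshold of an adjusted p below 0.05 with a fold above 2, the lowest adjusted p being 0.9999. An unadjusted limma p under 0.05 was reached by 1 gene of the 37, Sfrp4 (2.7%), against 1.6% of all 18260 tested genes. The mean was lower in KO for 29 of the 37 (78.4%), against 47.5% of all tested genes. By size alone, 6 of the 37 (16.2%) were over 2-fold lower in KO, against 2.68% of all tested genes, and 1 (2.7%) was over 2-fold higher, against 1.13%. The 6 were Sfrp4, Wnt10a, Sfrp2, Wnt4, Tcf7 and Lef1, and the 1 was Rspo4, so 4 of the 6 and the 1 are genes that passed the filter through a single group. Among the 32 genes well above background on all 4 arrays, 2 were over 2-fold lower, Sfrp4 and Sfrp2, and 0 were higher. With normexp background correction the counts were likewise 2 and 0. Without KO 2 the count of 6 became 3, and without KO 3 it became 13. The KO arrays were both below the WT arrays for 8 genes (21.6%), against 10.7% of all tested genes, and both above for 1, Wnt1 (2.7%), against 12.9%. The 8 were Sfrp4, Sfrp2, Dkk3, Wnt10a, Wnt9a, Axin1, Fzd3 and Fzd6. With normexp the counts were 4 below and 7 above. The shares of all tested genes under normexp were not computed, so these counts cannot be set against the whole array.

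**Figure D1:**
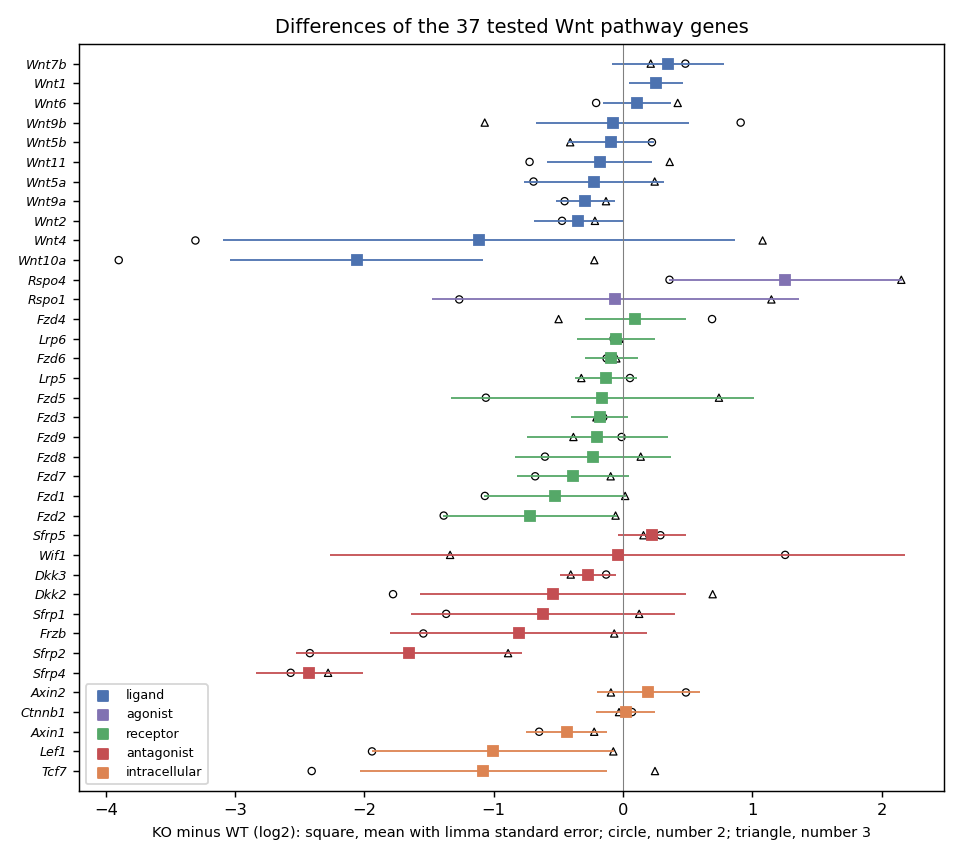
Difference of each of the 37 tested Wnt pathway genes, KO minus WT on the log2 scale, grouped by role. Squares with bars are the mean difference and its limma standard error (n = 2 arrays per group), circles are KO 2 minus WT 2 and triangles are KO 3 minus WT 3. Sfrp4 is the gene with circle and triangle both below -2, and the widest gaps between circle and triangle are those of Wnt4, Wnt10a and Tcf7.

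The median difference of the 37 genes was -0.20, against 0.02 for all tested genes. With normexp it was -0.03, where the median of all tested probes was 0.13. Within number 2 it was -0.47, against 0.02 for all genes, and within number 3 it was -0.06, against 0.01. At number 2, 13 of the 37 (35.1%) were over 2-fold lower and 1 (2.7%) was over 2-fold higher in KO, against 9.78% and 6.74% of all tested genes. The 13 include Lef1, Tcf7, Wnt4 and Wnt10a, which passed the filter through WT only and were not well above background on KO 2. At number 3, 3 were lower (8.11%) and 3 were higher (8.11%), against 1.94% and 2.51%. The 3 higher include Rspo4 and Wnt4, which also passed the filter through a single group. Without KO 2 the median difference was 0.10, so its sign rests on that array. The fibroblast marker list was also lowest on KO 2. Its mean log2 signal was 5.30 (WT 2), 5.44 (WT 3), 4.43 (KO 2) and 5.23 (KO 3), with all 10 of 10 markers measured on every array and a summed log2 signal between 10.11 and 10.31 in WT and between 9.65 and 10.21 in KO. Its part in the Wnt results was not tested.

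Sfrp4, a frizzled-related antagonist, was lower on both KO arrays than on either WT array. Its log2 signal was -0.14 (WT 2), -0.97 (WT 3), -2.71 (KO 2) and -3.25 (KO 3). The WT values were thus -0.55 ± 0.59 (SD, n = 2) and the KO values -2.98 ± 0.38 (SD, n = 2). The difference was -2.43 (standard error 0.41, limma adjusted p 0.9999), a 5.37-fold lower signal. KO 2 differed from WT 2 by -2.57 and KO 3 from WT 3 by -2.28, and leaving out 1 array gave values from -2.84 to -2.01. With normexp background correction the difference was -1.69. By mean difference, Sfrp4 ranked 34 from the lowest of the 18260 tested genes. Of the 10 fibroblast markers, 6 were lower in KO at both numbers as Sfrp4 was. They ranged from Dpt (-1.08 at number 2, -0.88 at number 3), Pdgfra (-0.90, -0.66) and Tcf21 (-0.82, -0.79) to Dcn (-0.33, -0.07). Col1a1, Col1a2, Col3a1 and Postn were lower in KO at number 2 but higher at number 3, by 0.17, 0.24, 0.07 and 0.28. Of the 10, 4 had groups that did not overlap, with KO lower, against 10.7% of all tested genes. Tcf21 was not among the 4. How many of all tested genes were lower at both numbers was not computed. The mean of the list was lower on both KO arrays. Its part in the Sfrp4 difference was not tested.

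**Figure D2:**
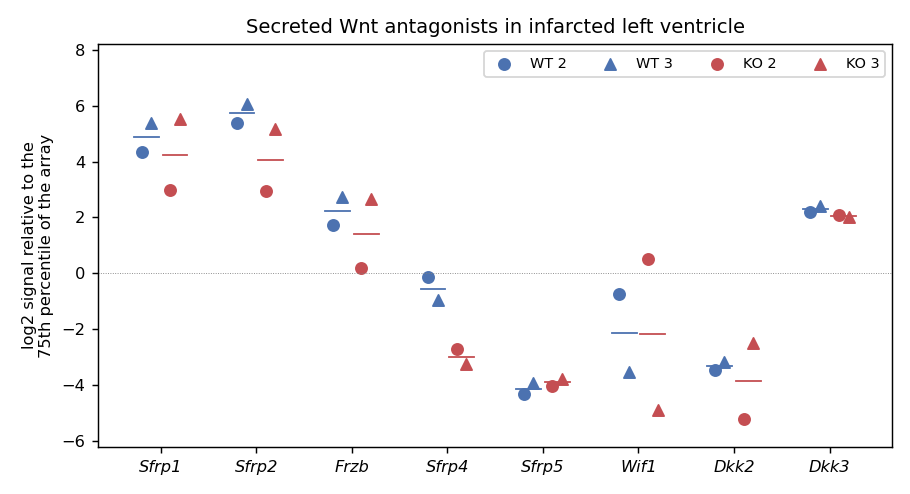
Log2 signal of the 8 tested secreted Wnt antagonists on each array, as the distance from its 75th percentile. Points are single arrays (blue WT, red KO, circles number 2, triangles number 3) and bars are the means of 2 arrays. The red points of Sfrp4 lie more than 1.5 log2 units below its blue points, those of Sfrp2 and Dkk3 lie below by less, and the groups of the other 5 genes overlap.

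Of its relatives, Sfrp1, Sfrp2 and Frzb had their lowest values on KO 2. Sfrp2, which is also made by scar fibroblasts, was at 5.37 (WT 2), 6.06 (WT 3), 2.95 (KO 2) and 5.17 (KO 3). Its KO values were both below its WT values, KO 2 by far the more. The Sfrp2 difference was -1.66 (standard error 0.87, limma adjusted p 0.9999), made of -2.42 at number 2 and -0.89 at number 3, and it shrank to -0.54 without KO 2. Sfrp1 was at 4.35 (WT 2), 5.39 (WT 3), 2.98 (KO 2) and 5.52 (KO 3), so the lowest and the highest values were both in KO. Its difference of -0.62 (standard error 1.02) was made of -1.37 at number 2 and 0.12 at number 3, its second probe differed by -0.81, and without KO 2 the difference was 0.64. Frzb, the gene of frizzled-related protein 3, was at 1.73 (WT 2), 2.72 (WT 3), 0.19 (KO 2) and 2.66 (KO 3). KO 3 was close to WT 3, and the difference of -0.81 (standard error 0.99) was made of -1.54 at number 2 and -0.07 at number 3, turning to 0.43 without KO 2. The valve and cartilage marker list, of which 7 of 8 markers were well above background throughout, had the same array order as Frzb. The list means were 0.53 on WT 3, 0.20 on KO 3, 0.03 on WT 2 and -0.35 on KO 2, with summed log2 signals of 7.01, 6.73, 6.15 and 4.36. Only its markers Comp and Sox9 had this order themselves, and Chad, Cytl1 and Hapln1 were highest on KO 2. Fzd2, Fzd7, Lef1 and Lrp6 had the order of Frzb too, and its share of all tested genes was not computed. The part of the list in the Frzb difference was not tested. Sfrp5 was at -4.31 (WT 2), -3.93 (WT 3), -4.02 (KO 2) and -3.77 (KO 3), with a difference of 0.22 (standard error 0.26) and overlapping groups.

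The Sfrp4 difference was set against those of its 4 relatives on the same arrays. The mean difference of Sfrp1, Sfrp2, Frzb and Sfrp5 was -0.71, and Sfrp4 lay -1.71 from it, by -1.31 at number 2 and -2.11 at number 3. The relatives had a mean of -1.26 at number 2 and -0.17 at number 3, against the Sfrp4 values of -2.57 and -2.28. With normexp the distance was -1.01, and Sfrp2 (-1.69) was as low as Sfrp4 (-1.69). The exact permutation test over the 4 arrays, two-sided, gave p = 0.667, and the smallest p that 2 arrays against 2 allow is 0.33. With 1 array left out, the distance of Sfrp4 from its relatives lay between -2.92 without KO 2 and -0.51 without KO 3.

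The remaining tested antagonists each had a lower mean in KO but did not share one direction within the array numbers. Wif1, which binds Wnt ligands through its WIF domain, was at -0.74 (WT 2), -3.54 (WT 3), 0.51 (KO 2) and -4.87 (KO 3). The number 2 arrays were the higher ones in both genotypes, and the KO arrays lay at the extremes. Its mean difference of -0.04 (standard error 2.22) came from 1.25 at number 2 and -1.34 at number 3. Dkk2 was at -3.44 (WT 2), -3.17 (WT 3), -5.22 (KO 2) and -2.47 (KO 3), with a difference of -0.54 (standard error 1.03) that was 0.83 without KO 2. Its difference was -1.78 at number 2 and 0.69 at number 3. Dkk3, a Dickkopf family member whose action on LRP receptors is disputed, was at 2.21 (WT 2), 2.41 (WT 3), 2.08 (KO 2) and 2.01 (KO 3). Its KO values were both lower, with a mean difference of -0.27 (standard error 0.22), which was -0.13 at number 2 and -0.40 at number 3. Of the 8 tested antagonists, 7 had a lower mean in KO and the median difference was -0.58, with -1.46 at number 2 and -0.24 at number 3.

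Among the R-spondins, Rspo4 had the largest difference above 0 of the 37 genes. It was at -5.15 (WT 2), -7.50 (WT 3), -4.79 (KO 2) and -5.35 (KO 3), and it was well above background on 3 arrays, all but WT 3. Its difference of 1.26 (standard error 0.90) was 0.36 at number 2 and 2.15 at number 3, and it became 0.08 without WT 3. The choice of background correction moved it too, to 0.57 with normexp. A second, dimmer Rspo4 probe was well above background on KO 2 only and did not pass the filter. That probe differed by 0.45, from 2.79 at number 2 and -1.90 at number 3, so the Rspo4 probes disagree at number 3. Rspo1 was at 0.17 (WT 2), 1.40 (WT 3), -1.09 (KO 2) and 2.55 (KO 3), with KO at both extremes. Its difference was -1.27 at number 2 and 1.15 at number 3, with a mean of -0.06 (standard error 1.42).

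Of the 11 tested Wnt ligands, 8 had a lower mean in KO, and the median difference was -0.18. Wnt10a, a ligand of the canonical branch, was at -3.73 (WT 2), -5.39 (WT 3), -7.63 (KO 2) and -5.61 (KO 3). Both KO values were lower, but KO 2 was not well above background and KO 3 was close to WT 3. The difference of -2.06 (standard error 0.98, limma adjusted p 0.9999) came from -3.90 at number 2 and -0.22 at number 3, and became -0.10 with normexp and -1.05 without KO 2. Wnt4, a ligand of epithelia and of the developing kidney and gonad, was at -4.21 (WT 2), -3.29 (WT 3), -7.52 (KO 2) and -2.21 (KO 3), and KO 2 was again not well above background. Its difference was -3.31 at number 2 and 1.08 at number 3, with a mean of -1.11 (standard error 1.98), and it was 0.28 with normexp and 1.54 without KO 2. Wnt7b had a difference of 0.35 (standard error 0.43), from 0.48 at number 2 and 0.21 at number 3, and it was -0.09 without KO 2. Wnt1 was higher on both KO arrays by a mean of 0.25 (standard error 0.21), with 0.26 at number 2 and 0.25 at number 3. The other 7 tested ligands, Wnt2, Wnt5a, Wnt5b, Wnt6, Wnt9a, Wnt9b and Wnt11, had differences between -0.34 and 0.11. Of these, Wnt9a was lower on both KO arrays, with differences of -0.45 at number 2 and -0.13 at number 3, and Wnt9b turned from 0.91 at number 2 to -1.07 at number 3. A second, dimmer Wnt6 probe, well above background on all 4 arrays, was lower on both KO arrays. Its difference was -0.46, against 0.11 for the brightest, so the Wnt6 probes disagree.

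Of the 11 tested receptors, 0 were over 2-fold different by mean, 3 were over 2-fold lower in KO at number 2 (27.3%, against 9.78% of all tested genes), 10 had a lower mean in KO, and the median difference was -0.18, with -0.15 at number 2 and -0.06 at number 3. The co-receptor genes Lrp5 and Lrp6, whose products pair with frizzleds for canonical signalling, differed by -0.13 (standard error 0.24) and -0.05 (standard error 0.30). Lrp5 was at 1.11 or 1.46 in WT and at 1.16 or 1.14 in KO. Among the frizzleds the differences ran from -0.72 for Fzd2 to 0.10 for Fzd4. Fzd2 and Fzd1 differed by -1.39 and -1.07 at number 2 and by -0.06 and 0.02 at number 3. Fzd5 differed by -1.06 at number 2 and 0.74 at number 3, with KO at both extremes. Fzd3 and Fzd6 were lower on both KO arrays, with mean differences of -0.18 and -0.09. A second, dimmer Fzd7 probe was lower on both KO arrays with a difference of -0.88, against -0.39 for the brightest, whose groups overlapped.

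In the intracellular cascade, the β-catenin gene Ctnnb1 varied little, at 3.76 (WT 2), 3.62 (WT 3), 3.83 (KO 2) and 3.59 (KO 3). Its difference was 0.02 (standard error 0.23), and its other 2 probes differed by -0.11 and -0.19. Its sign turned with quantile normalization, to -0.12. Axin1, the scaffold of the destruction complex, was lower on both KO arrays, with a mean difference of -0.44 (standard error 0.32), -0.65 at number 2 and -0.22 at number 3, and leaving out KO 2 gave -0.12. Axin2, a scaffold that is itself a target of canonical signalling, differed by 0.20 (standard error 0.40), with 0.49 at number 2 and -0.09 at number 3. Its mean was -0.25 without KO 2.

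The transcription factors Lef1 and Tcf7 were both not well above background on KO 2 and well above it on the other 3 arrays. Lef1 was at -4.66 (WT 2), -4.09 (WT 3), -6.60 (KO 2) and -4.16 (KO 3), with a difference of -1.01 (standard error 0.94). Tcf7 was at -3.42 (WT 2), -3.52 (WT 3), -5.83 (KO 2) and -3.27 (KO 3), with a difference of -1.08 (standard error 0.95). In both genes KO 3 lay close to the WT arrays, and without KO 2 the differences were 0.21 and 0.20. The second Lef1 probe that passed the filter differed by -1.20, with KO 2 again the lowest array. A second Tcf7 probe, well above background on all 4 arrays, was higher on both KO arrays, with a difference of 0.30, so the Tcf7 probes disagree.

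**Figure D3:**
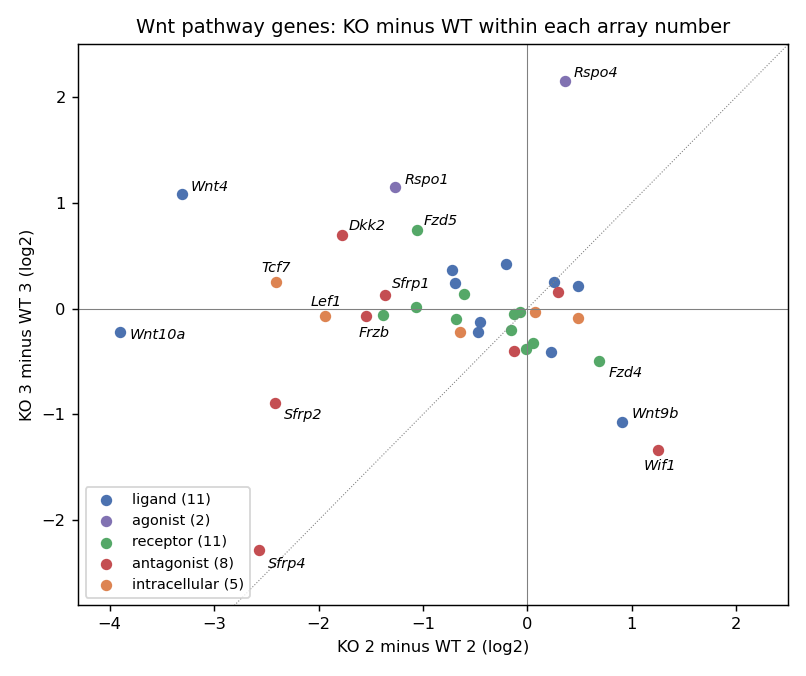
KO minus WT on the log2 scale within number 2 (horizontal axis) and within number 3 (vertical axis) for the 37 tested Wnt pathway genes, 1 array per genotype at each number. Colours give the role, with the number of genes in brackets, and the dotted line marks equal differences. Sfrp4 lies close to the dotted line at about equal depth on both axes, Wnt4 and Rspo1 lie at upper left and Wif1 at lower right.

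The differences at the 2 numbers had opposite signs for 18 of the 37 genes (48.6%), against 53.8% of all tested genes. For 3 genes they exceeded 1 log2 unit in opposite directions, namely Wnt4, Rspo1 and Wif1. The array order of these genes was also that of marker lists of other cell types. The mesothelial and epicardial list had a mean log2 signal of 0.93 on KO 3, 0.20 on WT 3, -0.51 on WT 2 and -2.55 on KO 2, with 8 of 8 markers well above background on every array and a summed log2 signal between 3.61 and 4.40 in WT and between 1.75 and 4.95 in KO. Its defining markers Upk3b and Msln were at -4.49 and 0.90 on KO 2, against -1.84 and 2.99 on WT 2, while Wt1 was at -0.48 and -0.89. Rspo1 and Wnt4 had the same order of arrays as this list, as did Dkk2, Fzd1, Fzd5, Fzd8, Sfrp1 and Wnt5a, 8 of 37 genes (21.6%) against 18.2% of all tested genes. The macrophage list had that order too, from 4.43 on KO 3 to 2.46 on KO 2. Wif1 had the order of the cardiomyocyte list, whose mean log2 signal was 7.61 on KO 2, 6.63 on WT 2, 5.59 on WT 3 and 4.78 on KO 3. So did Axin2, Ctnnb1 and Wnt5b, 4 of 37 genes (10.8%) against 18.3% of all tested genes. The endothelial list ran from 2.03 on KO 3 to 2.56 on KO 2. The part of cell composition in these differences was not tested.

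**Figure D4:**
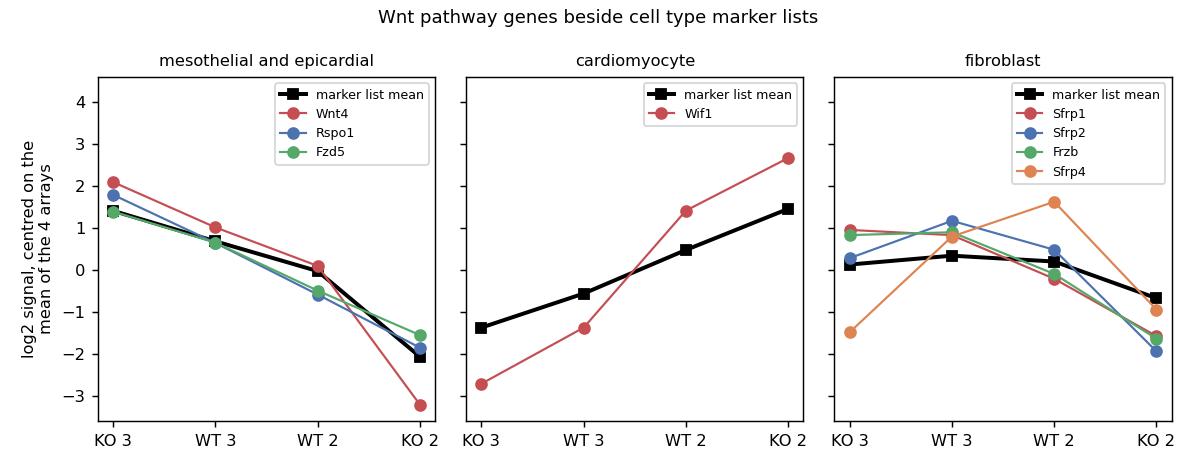
Log2 signal of named Wnt pathway genes (coloured) beside the mean of a cell type marker list (black), each centred on its own mean over the 4 arrays, with the arrays along the horizontal axis. Wnt4, Rspo1 and Fzd5 run from highest on KO 3 to lowest on KO 2 as the mesothelial and epicardial list does, Wif1 runs the other way with the cardiomyocyte list, and Sfrp4 is the frizzled-related gene that is low on KO 3 as well as on KO 2.

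Further genes of the pathway were read from 3 lists, of modulators at the membrane or outside the cell, of intracellular cascade genes and of target genes. Of 68 measured genes 64 were tested, and by limma 0 were called and 0 had an unadjusted p under 0.05. Their median difference was -0.05, 36 had a lower mean in KO (56.2%, against 47.5% of all tested genes), and 2 (3.12%, against 2.68%) were over 2-fold lower. The KO arrays were both above the WT arrays for 7 (10.9%, against 12.9%) and both below for 3 (4.69%, against 10.7%). The 2 over 2-fold lower were Igfbp4 and Cthrc1. Igfbp4, an insulin-like growth factor binding protein that also inhibits canonical Wnt signalling, was at 1.16 (WT 2), 1.93 (WT 3), -0.23 (KO 2) and 0.68 (KO 3). Its KO values were both below its WT values, and the difference of -1.32 (standard error 0.48, limma adjusted p 0.9999) was -1.40 at number 2 and -1.25 at number 3. Without KO 2 it was -0.86. Cthrc1, a secreted protein of scar fibroblasts that favours the noncanonical branch, was at 3.44 (WT 2), 3.56 (WT 3), 0.75 (KO 2) and 4.24 (KO 3). Its difference of -1.01 was made of -2.69 at number 2 and 0.68 at number 3, and leaving out KO 2 gave 0.74. Dact1, an intracellular modulator that binds Dishevelled, was lower on both KO arrays, with differences of -1.37 at number 2 and -0.52 at number 3, with a mean of -0.94 (standard error 0.45) and a value of -0.41 without KO 2.

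The largest differences above 0 among the further genes that passed the filter were those of Tnfrsf19, Lgr5 and Dvl3. Tnfrsf19, a receptor that is a target of β-catenin, differed by 0.93 (standard error 1.21), with 1.57 at number 2 and 0.30 at number 3, and its value without KO 2 was -0.49. The R-spondin receptor Lgr5 differed by 0.58 (standard error 0.85), and by -0.08 without WT 2. Dvl3, one of the Dishevelled relays between frizzled and the Axin complex, was higher on both KO arrays, with a difference of 0.45 (standard error 0.26), 0.50 at number 2 and 0.40 at number 3. Of the 12 tested target genes, 10 had a lower mean in KO, with a median of -0.39 that was -0.98 at number 2 and 0.21 at number 3. The 29 measured cascade genes had a median of 0.01 and the 23 tested modulators one of -0.01.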

How the data were processed

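Agilent Whole Mouse Genome one-colour arrays of 4 infarcted heart samples were analysed. The authors scanned them with Agilent Feature Extraction 10.7 and deposited an intensity per spot, which per the file headers was background-subtracted and detrended, with probe positions on mm9. They also deposited a table of log2 values normalized in GeneSpring by a method that is not stated, used here as an alternative only.

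Outlier-flagged spots (between 92 and 116 per array) and control spots were left out, spots of each of the 41174 probes were averaged, and the log2 processed signal was shifted by the 75th percentile of its array. On each array 68.15% to 72.04% of its probes were well above background. Of the probes, 12864 were too dim and 6 lacked a value, which left 28304. The genotypes were compared in limma 3.58.1 under R 4.3.3 (lmFit, eBayes) without a block, with Benjamini-Hochberg adjustment over all tested probes, after a check on simulated data. Called means an adjusted p below 0.05 with a fold above 2. Nothing in the labels says that the arrays are separate animals, although the 2 arrays of each genotype differed in Xist and Y-linked signal. The p-values measure the spread between these samples, and the number of arrays limits their precision. All 50 genes matched a symbol in the RefSeq table.

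The genes and lists were chosen with earlier results of these data known. Named were Kdm5b and Xist, each tested antagonist, the intracellular and LRP genes, the 5 largest differences in each direction, genes over 1 log2 unit apart in opposite directions at the 2 numbers, and the 3 largest in each direction among the further genes. Genes listed as exceptions or examples beside a count were named after their values were seen. The alternatives were normexp (offset 50), quantile normalization, a shift by the median, the authors' values, no filter or a filter on all 4 arrays, the mean of all probes, a block for the array number, leaving out each array, the methods' t-test and unadjusted p.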

Additional observations from a re-analysis of the deposited data

Results flagged for a closer look

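For 3 genes the KO minus WT difference was over 1 log2 unit in opposite directions at the 2 array numbers. The difference at number 3 minus that at number 2 was 4.39 for Wnt4, 2.41 for Rspo1 and -2.59 for Wif1. Each number has 1 array per genotype, so these gaps between the numbers were not tested. Nor can they be told apart from the sex-linked signals that divide the numbers. Xist, which enters no comparison of the groups, reached 14.13 on WT 2 and 13.24 on KO 2 (log2 signal before scaling), arrays of samples labelled male, against 1.92 on WT 3 and 2.01 on KO 3.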

How the results depend on the processing

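By limma, 0 probes, 0 Wnt pathway genes and 0 further genes were called in each setting run, and with 2 arrays per group this says nothing about stability. At an unadjusted limma p under 0.05 there were 410 probes and 1 Wnt pathway gene. The methods' t-test gave 88 probes and 1 Wnt pathway gene unadjusted at a fold over 2, and 0 after adjustment. The correlation of same-numbered deviations was 0.57, from only 2 pairs, so the numbers were not taken as pairs. Same-numbered arrays shared their Xist and Y-linked signals, which the fit without a block leaves in the spread within each genotype. With the array number as a block, limma called 0 and the lowest adjusted p was 0.9949. In that setting 602 probes and 2 Wnt pathway genes had an unadjusted limma p under 0.05. Normexp, under which the median of all probes moved to 0.13, gave 0 genes over 2-fold higher, 2 over 2-fold lower, 7 with both KO arrays above and 4 below, and reversed Dkk2 (0.12), Wif1 (0.56), Lef1 (0.23), Ctnnb1 (-0.033), Lrp6 (0.048) and Wnt4 (0.28). Quantile normalization and the authors' values both put Ctnnb1 at -0.12. The shift by the median left 5 genes with both KO arrays below. No filter gave 3 genes over 2-fold higher, and the filter on all 4 arrays 0 higher and 2 lower, where the number of genes tested differs by construction. With the mean of all probes Ctnnb1 was -0.092 and Lrp6 0.0011. Apart from normexp's construction, which compresses dim signals, the cause of these changes was not tested. Over the named genes, 209 of 219 values kept their direction with 4 arrays and 91 of 112 with 1 array left out. For counts by size or by non-overlap, the shares of all tested genes were computed in the main setting only.

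With 1 array left out, 0 to 3 genes were over 2-fold higher, 3 to 13 over 2-fold lower, 3 to 13 had all KO values above and 10 to 23 all below (fewer arrays to separate), the median difference lay between -0.36 and 0.10, and Sfrp4 lay -2.92 to -0.51 from its relatives. The lone array of a group takes its spread from the other group. The ranges of genes that reversed were -1.92 to 0.83 for Dkk2, -2.04 to 0.43 for Frzb, -1.89 to 0.64 for Sfrp1, -2.73 to 2.65 for Wif1, -0.25 to 0.64 for Axin2, -2.23 to 0.21 for Lef1, -2.36 to 0.20 for Tcf7, -0.10 to 0.14 for Ctnnb1, -0.31 to 0.043 for Lrp5, -0.28 to 0.18 for Lrp6, -0.085 to 0.78 for Wnt7b, -3.77 to 1.54 for Wnt4, -1.88 to 1.76 for Rspo1, -0.49 to 2.36 for Tnfrsf19, -0.34 to 1.49 for Lgr5 and -2.75 to 0.74 for Cthrc1. Genes whose groups do not overlap cannot reverse this way.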
